A study of Mus musculus with 298 samples.

Results

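The cells described here are 114 neurons labelled as cells of the mouse suprachiasmatic nucleus (SCN). In them none of 6 peptide precursor genes, Vip, Avp, Nms, Prok2, Cck and Grp, reached 100 CPM. CPM scales a cell's reads of a gene to the cell's total, 1000000 reads. They made up 38.4% of 297 distinct cells (exact 95% binomial interval 32.8 to 44.2), and the other 183 cells carried at least 1 of the 6 genes at 100 CPM or more. Of those others, 55 carried Vip, 95 carried Avp without Vip, and 33 carried only Nms, Prok2, Cck or Grp. Below, "peptide-lacking" means under 100 CPM for each of the 6 genes, and a cell "carries" a gene at 100 CPM or more.

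The SCN is the hypothalamic nucleus that holds the body's central clock. Most of its neurons release GABA, made by the enzymes encoded by Gad1 and Gad2, and many also release peptides by which they keep time together. VIP acts on the receptor VPAC2 (Vipr2) and PROK2 on its own receptor (Prokr2), and AVP, gastrin-releasing peptide, neuromedin S and cholecystokinin are further SCN peptides. Slc17a6 encodes the vesicular transporter VGLUT2, which loads glutamate and is typical of excitatory neurons elsewhere in the hypothalamus.

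Each sample was 1 neuron, recorded by patch clamp in a slice, after which its cytoplasm was drawn into the pipette for sequencing. The light cycle was 12 h light to 12 h dark. Brains for day cells were sliced near lights on, and those for night cells near lights off. Every cell was labelled an interneuron of the SCN and carried 3 labels, for time (day or night), firing (active, silent or depolarized) and cFOS (cFOS+ or cFOS-), which form 12 groups. The labels give no strain, genotype, age, animal, slice or position within the slice, and several neurons could share a slice. The peptide-lacking class is therefore 1 sample, as are the cells set against it. No test between classes or conditions was possible, and no p-value is given. Intervals cover counting error only, reads for CPM and cells for shares, and treat cells as independent draws.

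The class was chosen on measured values, so its low peptide levels are its definition. Of the 114 cells, 60 had no read of any of the 6 genes, 100 stayed under 10 CPM for each, and 14 reached between 10 and 100 CPM. Just inside the threshold the highest peptide level was 99.0, 76.9 and 75.8 CPM in 3 cells, and just outside it 112, 116 and 145 CPM. In the 183 others the median of the highest peptide was 2943 CPM, and 53 of them stayed under 1000 CPM. Even in the shallowest cell, 100 CPM stood for about 318.7 reads.

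Depth was alike in both classes. Total reads ran from 3187057 to 20074911 in peptide-lacking cells, with a median of 6276024, and the median of the others was 6321788. Peptide-lacking cells had a read in a median of 4915 genes (2341 to 8420), against 4308 in the others (2361 to 8179). The label "neuron" was checked against its markers, and whether each cell lay in the SCN was not tested. All 114 cells had 100 CPM or more over 14 summed neuron markers, from 848 through a median of 7623 to 13850 CPM, against a median of 6295 in the others.

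Markers of other cell types were present in both classes. The 12 microglia markers summed to 100 CPM or more in 49 of 114 peptide-lacking cells (43.0%) and in 65 of 183 others (35.5%). They ran from 0 through medians of 59.0 and 3.11 CPM to highest values of 35484 and 22265 CPM, and exceeded the neuron markers in 7 cells of each class. Astrocyte markers reached 100 CPM in 67.5% and 52.5% of cells, and oligodendrocyte markers in 48.2% and 45.4%. The endothelial and pericyte markers reached it in 7 and 8 cells, and the ependymal and tanycyte markers in 8 and 12. Their part in the results below was not tested, and values without the cells at 100 CPM of microglia markers are given where they turn or end a result.

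Peptide-lacking cells were found in every larger group. By day they were 48 cells, a share of 35.3% (27.3 to 43.9), and by night 66 of 161 cells (41.0%; 33.3 to 49.0). By firing they were 65 of 165 active cells (39.4%), 45 of 118 silent cells (38.1%) and 4 of 14 depolarized cells (28.6%). The day and night shares lay inside each other's intervals, as did the active and silent shares, and the depolarized interval (8.39 to 58.1) overlapped both. By cFOS label they were 48 of 148 cFOS+ cells (32.4%; 25.0 to 40.6) and 66 of 148 cFOS- cells (44.6%; 36.4 to 53.0), and these intervals overlapped. The cFOS- share was the higher one within day active, day silent, night active and night silent cells.

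**Figure D1:**
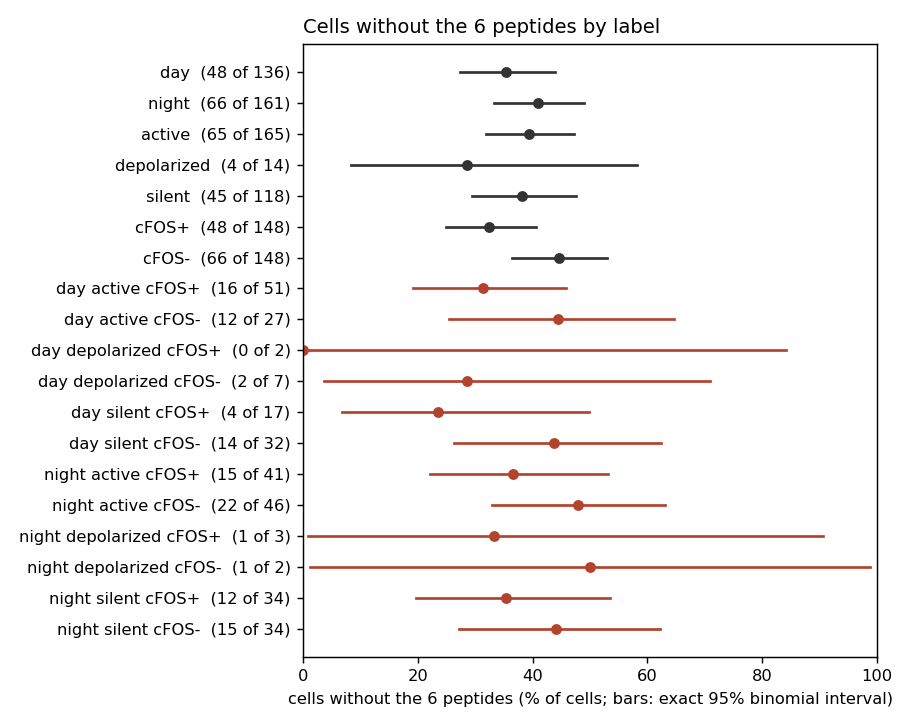
Peptide-lacking cells as a percent of all cells of a label (dark) or of a group (red), with exact 95% binomial intervals. The shares of the larger groups lie between 23.5% (day silent cFOS+) and 47.8% (night active cFOS-), and all intervals overlap.

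The cFOS label did not follow the Fos transcript in this class. Fos, the immediate early gene that encodes cFOS, was at 2172 CPM in cFOS+ and 2817 CPM in cFOS- peptide-lacking cells, pooled over cells. It was carried by 45 of 48 and 60 of 66 cells. The labels do not say how cells were called cFOS+ or cFOS-.

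In place of the 6 peptides, no single gene marked these cells. The 6 genes proposed as their markers were each carried by 12.3% to 22.8% of the cells and by 2.19% or fewer of the others. Together they reached 69 of 114 peptide-lacking cells (60.5%; 50.9 to 69.6) and 12 of 183 others (6.56%; 3.43 to 11.2). Of the 114, 45 carried none, 38 carried 1, 23 carried 2 and 8 carried 3 or more. None of the others carried 3, which allows a share of up to 2.00% by the exact interval. Over all 9443 genes carried by 5% of either class, 12.9% were carried by at least 10 percentage points more of the peptide-lacking cells and 3.37% by 10 points fewer. All 6 markers were among the former, and they were proposed with these data known, so their direction is a description.

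Slc17a6 (chromosome 7, 51622006 to 51671119, plus strand, GRCm38) was carried by 26 of 114 peptide-lacking cells (22.8%; 15.5 to 31.6) and 2 of 183 others (1.09%; 0.133 to 3.89). Its level ran from 0 through a median of 0 to 1445 CPM, and 86 of the 114 cells had no read. Pooled over cells it was at 117 CPM against 7.54 CPM, and 1 peptide cell with 863 CPM held most of the latter. Without the top cell of each class the pooled levels were 96.8 and 1.08 CPM. The log2 ratio was 2.65 in the cells with the lower numbers of their titles and 6.46 in those with the higher numbers. Among its 26 carriers the median was 448 CPM, and no peptide-lacking cell lay between 10 and 100 CPM, as the plot of single cells shows.

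Sst (chromosome 16, 23889573 to 23890958, minus strand), the precursor of the inhibitory peptide somatostatin, was carried by 20 peptide-lacking cells (17.5%; 11.1 to 25.8) and 4 others (2.19%). It ran from 0 through a median of 0 to 20902 CPM, with a median of 2560 CPM among carriers. The pooled level was 672 CPM against 139 CPM, and 1 peptide cell with 17380 CPM held most of the latter. Without the top cell of each class the pooled levels were 470.9 and 37.5 CPM. The number that each cell bears in its title has no stated meaning. The log2 ratio between classes was 1.001 in the cells with the lower numbers and 4.51 in those with the higher numbers.

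Pnoc (chromosome 14, 65400673 to 65425472, minus strand), the precursor of nociceptin, and Cnr1 (chromosome 4, 33924593 to 33948831, plus strand), the CB1 cannabinoid receptor, were each carried by 17 peptide-lacking cells (14.9%; 8.93 to 22.8). In the others they were carried by 4 cells and 1 cell. Pnoc reached 1356 CPM and Cnr1 385.2 CPM in single peptide-lacking cells. The medians of both were 0.

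Cacna1h (chromosome 17, 25374285 to 25433783, minus strand) encodes the T-type calcium channel Cav3.2, and it was carried by 15 peptide-lacking cells (13.2%; 7.56 to 20.8) and 1 other. Gpr101 (chromosome X, 57496668 to 57503757, minus strand), an orphan receptor, was carried by 14 (12.3%; 6.88 to 19.8) and 2. Their highest levels in peptide-lacking cells were 477.3 and 608.6 CPM, and pooled levels were 31.4 against 0.874 CPM and 38.7 against 4.06 CPM. Both were thus rare in either class and rarer in the others.

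**Figure D2:**
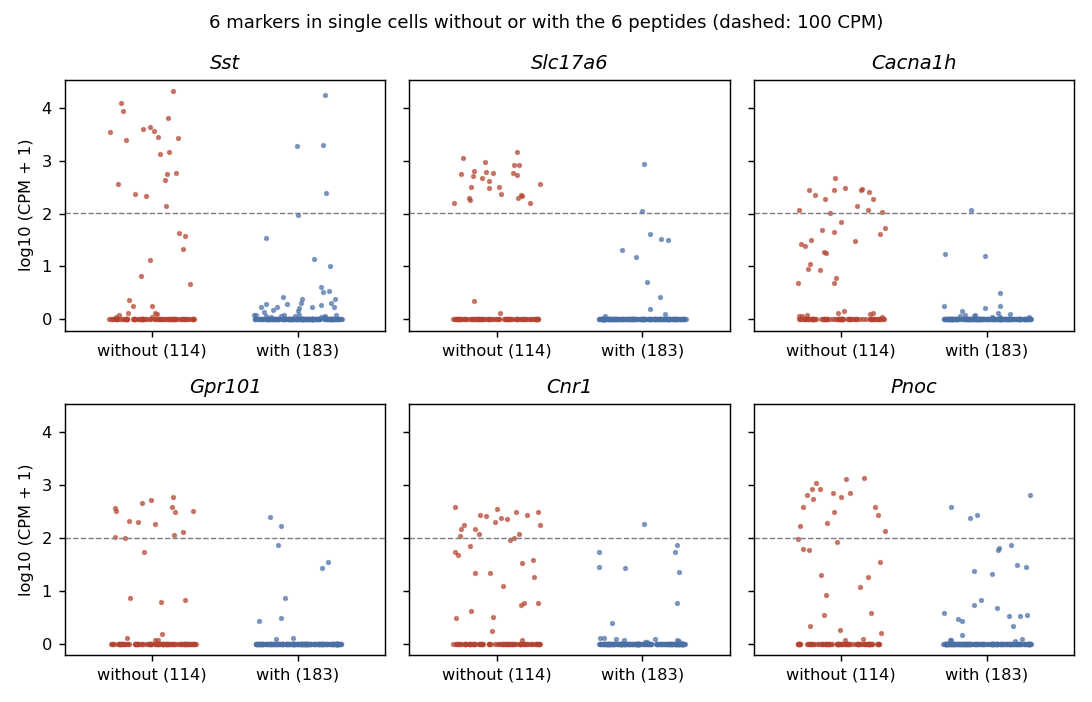
Level of the 6 markers in every cell, as log10 (CPM + 1), in 114 peptide-lacking cells (red) and 183 others (blue). Points are spread sideways at random, and the dashed line is 100 CPM. Most cells of both classes sit at 0, and above the line are between 14 (Gpr101) and 26 (Slc17a6) peptide-lacking cells but at most 4 others.

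The class difference in these markers was narrower when any read counted. After each cell was thinned to 4000000 reads, which left out 12 peptide-lacking cells and 7 others, a read of Slc17a6 was found in 24.5% and 6.82% of cells. A read of Sst was found in 30.4% and 19.3%, and one of Pnoc in 26.5% and 13.6%. Cacna1h and Cnr1 were each found in 32.4% and 7.39%, and Gpr101 in 19.6% and 5.11%. The peptide-lacking share stayed the higher one for all 6. It was also the higher one for all 6 among the 65 and 118 cells under 100 CPM of microglia markers, with Sst in 20% and 1.69% and Slc17a6 in 18.5% and 0.847% of cells.

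Fewer peptide-lacking cells had a GABA gene. At least 1 of Gad1, Gad2 and Slc32a1, the vesicular GABA transporter, was carried by 91 of 114 (79.8%; 71.3 to 86.8), against 173 of 183 others (94.5%; 90.2 to 97.3). Gad1 was carried by 70.2% and 91.3% of cells, with levels of 0, 703 and 3347 CPM (lowest, median, highest) against 0, 1266 and 6414 CPM. Gad2 was carried by 53.5% and 53.6%, so the classes did not differ there. Of the 5 GABA genes listed, 1 was higher and 4 were lower in peptide-lacking cells (median log2 ratio -0.79).

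The transmitter genes divided the class. GABA genes without Slc17a6 were carried by 81 cells (71.1%). Slc17a6 was carried with a GABA gene by 10 (8.77%) and without one by 16 (14.0%), and 7 (6.14%) carried neither. No other cell carried Slc17a6 without a GABA gene, which allows up to 2.00% by the exact interval. Of the 7 cells with neither, 6 had 100 CPM or more of microglia markers. Their neuron markers ran from 848 to 9997 CPM.

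Genes of monoamine handling were more frequent than in all 183 others, but not clearly so than in each part of them. Th, Ddc or Slc18a2, which encode tyrosine hydroxylase, aromatic amino acid decarboxylase and the vesicular monoamine transporter, were carried by 48 of 114 (42.1%; 32.9 to 51.7) against 36 of 183 (19.7%; 14.2 to 26.2). The share was 20% in Vip cells and 13.7% in Avp cells without Vip. In cells with only Nms, Prok2, Cck or Grp it was 36.4% (20.4 to 54.9), and that interval overlapped the class's. Ddc was carried by 25.4% of peptide-lacking cells and 12.0% of all others, and Slc18a2 by 18.4% and 9.84%. The pooled Slc18a2 ratio, 0.23 on the log2 scale, was -1.36 in the cells with lower numbers and -0.38 at night. Th was carried by 8 peptide-lacking cells and 1 other. That other cell held 8417 CPM, so the pooled levels of 112 and 77.9 CPM were close, and by day the log2 ratio was -0.55. Among cells under 100 CPM of microglia markers, 2 of 65 peptide-lacking cells and 0 of 118 others carried Th, with overlapping intervals. Hdc, which makes histamine, was less frequent, in 5.26% against 14.8%.

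Peptide-lacking cells were not poor in peptides as such. Of 40 other neuropeptide precursors, at least 1 was carried by 85 of 114 (74.6%; 65.6 to 82.3), against 83 of 183 others (45.4%; 37.99 to 52.9). By part of the others the share was 50.9% in Vip cells and 37.9% in Avp cells without Vip. In cells with only Nms, Prok2, Cck or Grp it was 57.6% (39.2 to 74.5), and that interval overlapped the class's. Among peptide-lacking cells, none was carried by 29 cells, 1 by 36, 2 by 19, and 3 or more by 30 (26.3%). In the others, 9 cells (4.92%) carried 3 or more. Of the 20 precursors at 5 CPM or more in either class, 17 were higher in peptide-lacking cells, with a median log2 ratio of 2.55. Here and in the lists below, a gene that reached 5 CPM in 1 class only had to be higher there, so these counts are descriptions. Over all 11969 genes measured at that level, 53.0% were higher and the median was 0.05. Of the 14 precursors at 20 CPM or more, 10 were at least 2-fold higher and none 2-fold lower, where 8.31% of all 8760 genes at that level were 2-fold higher and 6.52% lower. The 40 precursors include the markers Sst and Pnoc, which were proposed with these data known. All counts of this list thus partly restate that choice.

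Cartpt, the precursor of the CART peptides, was carried by 16.7% of peptide-lacking cells (10.3 to 24.8) and 3.83% of the others (1.55 to 7.72). It ran from 0 through a median of 0 to 4651 CPM. Gal, the galanin precursor, was carried by 14.0% and 2.73%, and Pdyn, the precursor of dynorphin, by 13.2% and 2.19%. All 3 were thus carried by a minority of the class, and their intervals lay above those of the others.

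Trh and Nts, the precursors of thyrotropin-releasing hormone and neurotensin, were carried by 12 peptide-lacking cells each (10.5%) and by 3 others each (1.64%). In single carriers they reached 34322 and 12584 CPM, so that Trh pooled to 1570 CPM and Nts to 436 CPM. Adcyap1, the PACAP precursor, was also carried by 12 cells (10.5%) and by 5 others (2.73%). Its pooled levels were 60.4 and 18.0 CPM. The Adcyap1 direction turned without the cells at 100 CPM of microglia markers (log2 ratio -1.62), where 3 of 65 and 3 of 118 cells carried it.

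Penk, the enkephalin precursor, went the other way by share and was carried by 15.8% of peptide-lacking cells (9.63 to 23.8) and 26.2% of the others (20.02 to 33.2). The intervals overlapped. Its pooled level was nevertheless higher in peptide-lacking cells, 397.2 against 247.6 CPM, with single cells up to 9937 CPM. The pooled direction held among day cells (log2 ratio 1.95) and not among night cells (-0.22).

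**Figure D3:**
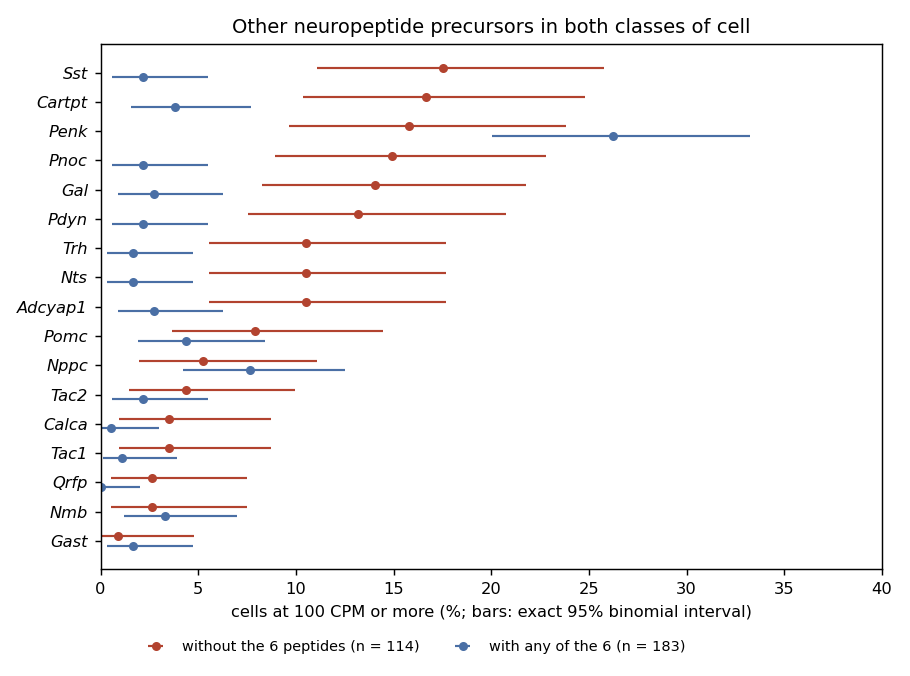
Percent of cells at 100 CPM or more of each other neuropeptide precursor carried by at least 3 cells of a class, with exact 95% binomial intervals, in peptide-lacking cells (red) and the others (blue). The intervals are apart for Sst, Cartpt, Pnoc, Gal, Pdyn, Trh and Nts, and Penk is the one precursor above 20% in the others.

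Some of these genes met in the same cells. Pnoc and Cartpt were carried together by 10 cells, of 17 and 19 carriers. All 12 Nts carriers, 13 of 14 Gpr101 carriers and 17 of 20 Sst carriers also carried Gad1. Sst met Slc17a6 in 3 cells and Pnoc in 1. Cnr1 met Slc17a6 in 8 of its 17 carriers.

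The 26 Slc17a6 carriers and the 81 GABA cells without Slc17a6 had different partners. Adcyap1 was carried by 11 of the 26 (42.3%; 23.4 to 63.1) and by none of the 81, which allows up to 4.45% by the exact interval. Of the 65 peptide-lacking cells under 100 CPM of microglia markers, 12 carried Slc17a6 and only 3 carried Adcyap1. Most Adcyap1 carriers thus had microglia markers, whose part was not tested. Trh was carried by 8 of 26 (30.8%) and 2 of 81 (2.47%), Cartpt by 38.5% and 8.64%, and Reln, an extracellular protein that guides neuronal positioning, by 34.6% and 4.94%. Nefl, the neurofilament light chain, was carried by 53.8% and 21.0%. Nr5a1, the transcription factor SF-1 of the ventromedial hypothalamus, was carried by 4 of 26 and none of 81.

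Other genes were more frequent in the GABA cells. Nts was carried by 12 of 81 (14.8%; 7.90 to 24.4) and by none of 26. Dlx1, a transcription factor of forebrain GABA neurons, was carried by 18.5% of the 81 and none of the 26. Lhx1 and Rorb, transcription factors of the SCN, were carried by 9.88% and 25.9% and again by none. A count of 0 among 26 allows up to 13.2% by the exact interval, and the Lhx1 share lay under that limit. Gpr101 was carried by 16.05% and 3.85%, and Penk by 19.8% and 3.85%. The intervals of Nts, Dlx1, Lhx1, Gpr101 and Penk overlapped between the subsets, and those of Rorb were apart.

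**Figure D4:**
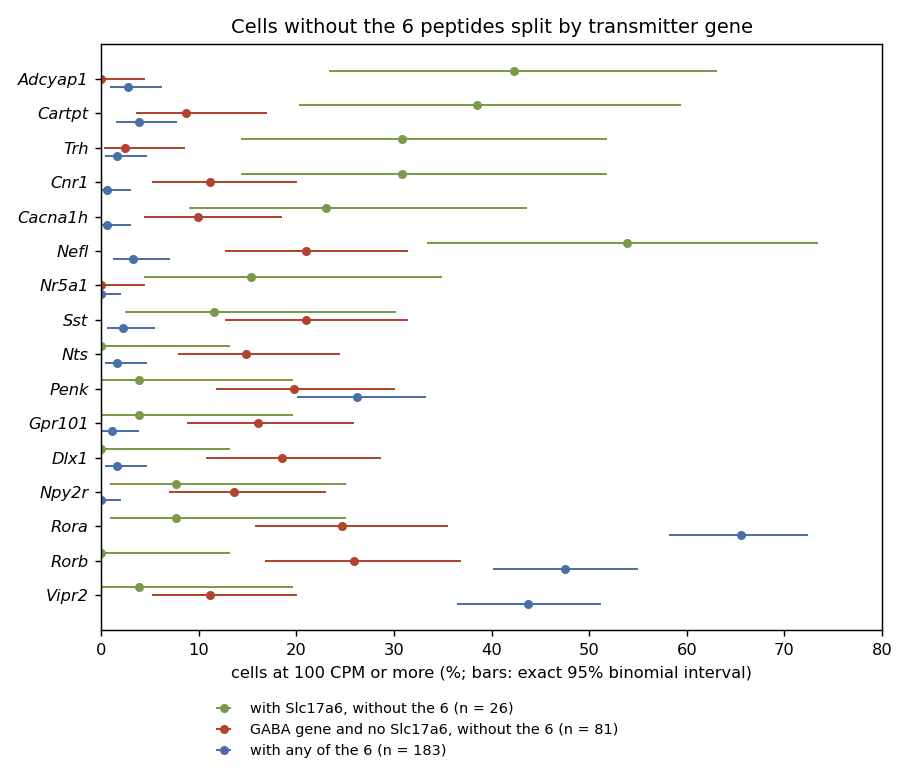
Percent of cells at 100 CPM or more of 16 genes, with exact 95% binomial intervals, in peptide-lacking cells with Slc17a6 (green), peptide-lacking cells with a GABA gene and no Slc17a6 (red) and cells with any of the 6 peptides (blue). The green and red intervals are apart for Adcyap1, Cartpt, Trh, Nefl and Rorb, and Rora and Vipr2 are lower in green and red than in blue.

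Both subsets differed from the peptide cells in the same sense in several genes. Oprl1, the nociceptin receptor, was carried by 57.7% of Slc17a6 carriers, 55.6% of GABA cells and 28.4% of peptide cells. Rora was carried by 7.69%, 24.7% and 65.6%, and Vipr2 by 3.85%, 11.1% and 43.7%. Microglia markers reached 100 CPM in 53.8%, 35.8% and 35.5% of the 3 sets. Against the peptide cells, oligodendrocyte markers were higher in 7 of 7 measured in Slc17a6 carriers (median log2 ratio 1.77) and in 1 of 6 in GABA cells (-1.14). Astrocyte markers were higher in 1 of 12 (-2.06) and 3 of 12 (-0.57), and the part of these markers was not tested. The Slc17a6 carriers came from 12 day and 14 night cells, and from 13 active and 13 silent cells.

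Transcription factors typical of the SCN were lower. Of 17 measured, 4 were higher and 13 lower in peptide-lacking cells (median log2 ratio -0.55). Rora, a nuclear receptor that activates clock genes, was carried by 24 of 114 (21.1%; 14.0 to 29.7) and 120 of 183 (65.6%; 58.2 to 72.4). Its levels were 0, 0 and 2547 CPM (lowest, median, highest) against 0, 391.6 and 3627 CPM. The related Rorb was carried by 18.4% and 47.5%, Id4 by 25.4% and 50.3%, and Zfhx3, a factor that sets SCN rhythms, by 29.8% and 48.6%. Rora or Rorb was carried by 41 of 114 (35.96%; 27.2 to 45.5) against 141 of 183 (77.0%; 70.3 to 82.9), so a minority of the class still had one.

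Six3, Six6 or Lhx1, factors of SCN development, were carried by 37 of 114 (32.5%; 23.99 to 41.9) and 101 of 183 (55.2%; 47.7 to 62.5). The parts of the others differed, with 67.3% of Vip cells and 52.6% of Avp cells without Vip. In cells with only Nms, Prok2, Cck or Grp the share was 42.4% (25.5 to 60.8), and that interval overlapped the class's. Factors of other hypothalamic regions were seen mainly as single genes. Of the 35 listed, 16 reached 5 CPM in either class and 3 reached 20 CPM, so most were rare and no direction is read from the list. Dlx1 was carried by 15 peptide-lacking cells (13.2%) and 3 others (1.64%), Lhx5 by 7 and none, and Isl1 by 6 and 1. Among night cells the Isl1 ratio had the opposite sign (log2 -0.27). Dlx2 was less frequent in peptide-lacking cells, with 5.26% against 14.2%.

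The receptors for VIP and PROK2 were less frequent in the class. Vipr2 was carried by 10 of 114 (8.77%; 4.29 to 15.5) and 80 of 183 (43.7%; 36.4 to 51.2), and Prokr2 by 6.14% and 32.8%. Either was carried by 13 peptide-lacking cells (11.4%; 6.21 to 18.7) and 97 others (53.0%; 45.5 to 60.4). Adcyap1r1, the PACAP receptor, was instead more frequent in peptide-lacking cells, with 29.8% (21.6 to 39.1) against 8.20% (4.66 to 13.2). Of the 9 peptide receptors measured, 5 were higher and 4 lower. Only 4 of them reached 20 CPM, of which 1 was 2-fold higher and 2 were 2-fold lower.

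Of receptors that couple to inhibitory G proteins, 14 of 18 measured were higher (median log2 ratio 0.97; all genes 53.0% and 0.05). Genes that reached 5 CPM in the class alone had to be higher, so this count is a description. Only 9 of the 18 reached 20 CPM, of which 5 were 2-fold higher and 0 were 2-fold lower. Over all genes at that level the shares were 8.31% and 6.52%. Oprl1 was carried by 54.4% (44.8 to 63.7) and 28.4% (22.0 to 35.5), the widest gap in share on this list. Npy2r, the Y2 receptor for neuropeptide Y, was carried by 14 of 114 (12.3%) and none of 183, with a highest level of 6.96 CPM in the others. Grm7, a presynaptic glutamate receptor, was carried by 19.3% and 6.56%.

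Receptor channels for GABA and glutamate were also mostly higher, 21 of 26 (median log2 ratio 0.52). Gabrg1, a GABA-A receptor subunit, was carried by 38.6% and 16.4%, Gria4 by 45.6% and 25.7%, and Gabra3 by 24.6% and 6.01%. Of the 21 members carried by 5% of either class, 12 were carried by 10 points more of the peptide-lacking cells and 3 by 10 points fewer, where 12.9% and 3.37% of all genes were. Among the latter was Grin2c, an NMDA receptor subunit, with 1.75% against 16.9%.

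**Figure D5:**
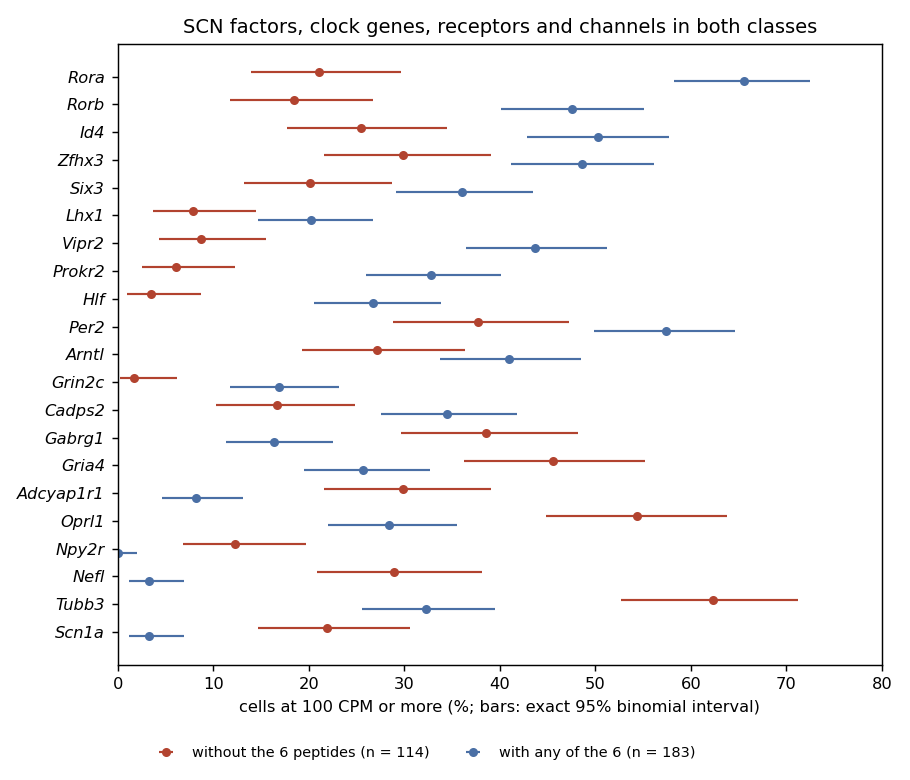
Percent of cells at 100 CPM or more of 21 genes, with exact 95% binomial intervals, in peptide-lacking cells (red) and the others (blue). SCN factors, Vipr2, Prokr2, Hlf and Grin2c lie lower in peptide-lacking cells, and the receptor subunits, Adcyap1r1, Oprl1, Npy2r, Nefl, Tubb3 and Scn1a lie higher.

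Voltage-gated channels showed no common direction. Of calcium and HCN channels 8 of 18 were higher, of sodium channels 5 of 10, and of potassium channels 11 of 26, with median log2 ratios of -0.07, -0.11 and -0.06. The potassium list changed sides when cells were averaged rather than pooled (69.2% higher) and without cells at 100 CPM of microglia markers (53.8%). Single channels differed more. Scn1a, the sodium channel Nav1.1, was carried by 21.9% and 3.28%, and the sodium-activated potassium channel Kcnt1 by 31.6% and 14.8%. Cacna2d3, an auxiliary calcium channel subunit, was carried by 19.3% and 35.5%.

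Clock genes were lower in the class, 17 of 22 (median log2 ratio -0.47), and Rora and Rorb are also on this list. Hlf, a clock output factor, was carried by 4 of 114 (3.51%; 0.964 to 8.74) and 49 of 183 (26.8%; 20.5 to 33.8). Per2, a core repressor, was carried by 37.7% and 57.4%, and Arntl, which encodes the activator BMAL1, by 27.2% and 41.0%. Within night cells alone the list was nearer to even, with 45.5% of its genes higher in peptide-lacking cells.

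Immediate early genes, which neurons switch on with activity, showed no common direction, 13 of 29 higher (median log2 ratio -0.08). Junb was carried by 89 of 114 (78.1%; 69.4 to 85.3) and 90 of 183 (49.2%; 41.7 to 56.7), and Jun by 63.2% and 43.7%. Ier2 was carried by 9.65% and 27.3%. The list thus held members with opposite differences, and its majority changed sides in 5 of the alternatives given in the closing section.

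Genes of dense-core vesicles, which store and release peptides, were lower in 11 of 16 (median log2 ratio -0.33). Pcsk2, a peptide-processing convertase, was carried by 35.1% and 60.1%, Cadps2, a vesicle priming factor, by 16.7% and 34.4%, and the secreted Vgf by 54.4% and 71.04%. Chga, a granule protein, was carried by 67.5% and 76.0% at pooled levels of 485.7 and 1336 CPM. All 3 phosphate transport genes were lower, with a median log2 ratio of only -0.11. Just 1 of them, Slc20a2, encoding the importer PiT-2, was 2-fold lower, at 37.2 and 85.3 CPM. It was carried by 14.0% and 21.3% of cells, with overlapping intervals. None of the 3 differed by 10 percentage points in share.

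General neuron markers were higher in 10 of 14 (median log2 ratio 0.49). Tubb3, a neuronal tubulin, was carried by 62.3% and 32.2%, Nefl by 28.9% (20.8 to 38.2) and 3.28% (1.21 to 6.999), and Syt1, a synaptic calcium sensor, by 68.4% and 43.7%. Microglia markers were higher in 11 of 12 (0.73) and astrocyte markers in 3 of 12 (-0.62). The astrocyte majority turned when cells were averaged (58.3% higher).

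Across the table, 728 of 8760 genes were at least 2-fold higher in peptide-lacking cells and 571 lower in pooled CPM. Averaging log2 (CPM + 1) over cells instead moved the median of all these genes by 0.35 and gave 13.9% of them as higher and 2.18% as lower. The median shift of the pooled ratio was 0.03. Of the called genes, 89.3% of the higher and 89.1% of the lower ones kept their direction in every split and average. The splits use the same cells that called the genes, so this agreement is partly built in. Given next are the most extreme of these by ratio that were carried by at least 5% of cells, with the 6 peptides left out.

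Among the higher ones were Lmo3, a transcriptional cofactor, carried by 10.5% of peptide-lacking cells and none of the others (43.3 against 0.00238 CPM), and Reln, carried by 12.3% and 0.546% (57.6 against 0.616 CPM). Col9a2, a collagen chain, was carried by 12.3% and none. Pamr1, Prkcd, a protein kinase C, and Polm, a DNA polymerase, were carried by 7.89%, 6.14% and 7.02% and by none of the others. Mfng, Gpr22 and Chn2 were carried by 7.02%, 9.65% and 7.02% and by at most 1.09% of the others. Npy2r, Cacna1h and Gal completed the 12. As the 12 were picked for extreme ratios, their near absence at 100 CPM from peptide cells is part of that choice. After thinning, a read of these genes was found in 6.86% (Prkcd) to 32.4% (Cacna1h) of peptide-lacking cells. In the others it was found in 1.70% (Lmo3) to 7.95% (Reln).

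The lower ones, picked in the same way, were rare in the class. Ccdc109b, a regulator of mitochondrial calcium uptake, was carried by 4.39% of peptide-lacking cells and 27.3% of the others (7.62 against 110 CPM). Fam122b was carried by 1.75% and 20.2%, Prr5l by 0.877% and 19.1%, and Prkg2, a cGMP-dependent protein kinase, by 0.877% and 16.4%. Tspan14 was carried by 0.877% and 10.9%, and Npbwr1, a receptor for neuropeptides B and W, by 0.877% and 8.20%. Rhpn2, Nxf7, Fam43a, Lhfp, Cacna2d4 and Fam83f were carried by none of the 114, which allows up to 3.18% by the exact interval, and by 6.01% to 8.74% of the others.

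Within the class, day and night cells shared the main markers. Sst was carried by 9 of 48 day and 11 of 66 night cells, and Slc17a6 by 12 and 14. Between 9.39% and 9.16% of 8836 genes were 2-fold higher by day and by night. Clock genes split evenly, 11 of 22 higher by day (median log2 ratio 0.03), while in peptide cells 16 of 22 were higher (0.51). Averaging over cells put 77.3% of them higher by day in peptide-lacking cells, so the even split belonged to the pooled values.

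Single clock genes nevertheless differed by time. Arntl was at 40.2 CPM by day and 111 CPM by night, a log2 ratio of -1.45 against -1.30 in peptide cells. Ciart, a clock repressor, was at 149.1 and 53.1 CPM (1.47, against 2.70 in peptide cells), and Csnk1d, a kinase of the PER proteins, at 55.8 and 114 CPM. Rora was at 210 and 57.7 CPM, carried by 29.2% and 15.2%. Day-night directions of Arntl and Ciart were thus the same in both classes.

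Immediate early genes were higher by day in 21 of 27 (median log2 ratio 0.62; all genes 49.5% and -0.01), and in 18 of 28 in peptide cells. Klf4 was at 43.1 and 7.59 CPM, Ier2 at 143.8 and 32.7 CPM, Egr2 at 82.2 and 20.2 CPM, and Egr4 at 512 and 214 CPM. In peptide cells their log2 ratios were 0.28, -0.05, -1.32 and -0.34, so Egr2 and Egr4 were lower by day there. Microglia markers moved with the time of day as well, with all 12 higher by day in both classes (median log2 ratio 1.53 and 0.75), and their part was not tested. Without the cells at 100 CPM of those markers, the log2 ratios of Klf4, Ier2, Egr2 and Egr4 in peptide-lacking cells were 2.41, 2.63, 4.31 and 0.97. Trh was carried by 2 day and 10 night cells and Npy2r by 10 day and 4 night cells, with overlapping intervals.

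Immediate early and clock genes were mostly higher in active than in silent peptide-lacking cells. Of 8809 genes, 10.7% were 2-fold higher in active cells and 7.88% in silent cells. Immediate early genes were higher in the active ones in 25 of 27 (median log2 ratio 0.81; all genes 52.3% and 0.04), where peptide cells had 17 of 28 (0.12). Nr4a1 was at 85.8 CPM in 65 active and 14.7 CPM in 45 silent cells, Arc at 551.9 and 111 CPM, Klf4 at 34.0 and 3.06 CPM, and Npas4 at 24.4 and 5.39 CPM. Arc, which acts at synapses, was carried by 44.6% and 28.9%. Without the cells at 100 CPM of microglia markers the Npas4 ratio was 0.35 and the list's share was 71.4%. In peptide cells the log2 ratios of Nr4a1, Arc, Klf4 and Npas4 were 0.45, -0.32, 1.25 and -0.65.

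Clock genes were higher in active cells in 20 of 22 (median log2 ratio 0.68) and in 9 of 22 in peptide cells (-0.08). The difference between the classes was not tested. Cry1, a core repressor, was at 186 and 75.0 CPM, Dbp, a clock output factor, at 129 and 55.2 CPM, and Clock at 69.6 and 33.9 CPM. Bhlhe40 was at 112 and 60.1 CPM, a ratio that was 0.03 on the log2 scale without the cells at 100 CPM of microglia markers. Microglia markers were higher in 6 of 12 and neuron markers in 2 of 14 in active cells.

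Sst and Cnr1 leaned to opposite firing labels. Cnr1 was carried by 5 of 65 active (7.69%; 2.54 to 17.0) and 12 of 45 silent cells (26.7%; 14.6 to 41.9), at 20.4 and 67.9 CPM. Sst was carried by 15 active (23.1%; 13.5 to 35.2) and 4 silent cells (8.89%; 2.48 to 21.2), at 943 and 327.7 CPM. Among the cells with lower numbers the Sst ratio was -0.46 on the log2 scale. Both pairs of intervals overlapped. The other 4 markers were carried by 12.3% to 20% of active and 11.1% to 28.9% of silent cells.

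By cFOS label, 7.46% of 8835 genes were 2-fold higher in cFOS+ and 11.6% in cFOS- peptide-lacking cells. Over all genes measured, 46.4% were higher in cFOS+ cells (median log2 ratio -0.07). Immediate early genes were higher in 10 of 27 (-0.11) and clock genes in 7 of 22 (-0.16). In the peptide cells these counts were 7 of 28 and 9 of 22. The majority of immediate early genes in peptide-lacking cells turned among the cells with higher numbers (57.7% higher in cFOS+) and among day cells (55.6%). Ier2 was at 9.95 CPM in cFOS+ and 130.5 CPM in cFOS- cells, whereas Npas4, Klf4 and the growth factor-induced Vgf were higher in cFOS+ cells (log2 ratios 1.55, 1.46 and 1.07). In peptide cells the log2 ratios of Ier2, Npas4, Klf4 and Vgf were -0.91, -0.40, -1.48 and 0.38, so Npas4 and Klf4 went the other way there. The Npas4 ratio in peptide-lacking cells was -0.34 without the cells at 100 CPM of microglia markers. Those markers differed by cFOS label in opposite senses, with 8 of 12 higher in cFOS+ peptide-lacking cells (0.62) and none of 12 in cFOS+ peptide cells (-1.44), and their part was not tested.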

How the data were processed

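Single neurons were sequenced from cytoplasm drawn through the patch pipette, with Nextera XT libraries per the labels' protocols. The authors deposited raw counts for 22800 gene symbols in 298 cells, and a normalized signal, in which a cell's counts had been divided by a single size factor (all 298 columns, tolerance 1e-06). STAR, DESeq2 and GRCm38.p4 appear in the submitters' processing notes without their roles. No source used here gives the annotation, the counting tool or whether strand was used. Overlapping or near-identical genes may share reads. No molecular identifiers are mentioned, so counts are reads and not molecules. Positions are from GENCODE M21.

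Samples S70 and S71 were nearly identical and entered as 1 cell, the mean of both. It lay among the peptide cells. Each cell's counts were scaled to CPM. Pooled CPM sum reads over the cells of a class. Log2 ratios add 1 CPM to each side. The 2-fold rule needs 20 CPM in the higher class, and a list member counts as measured at 5 CPM. Shares have exact Clopper-Pearson 95% intervals. A CPM threshold reads long transcripts at fewer molecules, so levels of different genes were not compared. Doublets were not called, as each cell had been picked under a pipette, and no cell was filtered out.

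The 12 genes named per direction were the most extreme of those called that kept their direction by day, by night, in the cells with lower and with higher numbers, without the top cell of each class, without cells at 100 CPM of microglia markers and in the mean over cells. They also had to be carried by 5% of cells, and predicted, ribosomal and mitochondrial genes were left out. From each list the members with the widest gap in share are named, and within the class the clock and immediate early genes with the widest difference that the lower and the higher cell numbers shared. Genes of the split by Slc17a6, and Nr5a1, Tac1, Reln, Adcyap1, Fos and Dlx2, were chosen after their values were seen. Some genes that these rules name are not reported here. The cells, the 6 markers and the lists were chosen with earlier results of these data known. Alternatives were the class at 10 or 1000 CPM, other filters, pseudocounts and averages, thinning, and leaving out cells by label or microglia markers. The scripts were tested on simulated data. Python 3.11.15, pandas 2.3.3 and scipy 1.17.1 were used.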

Additional observations from a re-analysis of the deposited data

Results flagged for a closer look

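Among groups with 4 to 10 peptide-lacking cells, only the 4 day silent cFOS+ cells could be searched for a value far from the rest by Dixon's limit, over 15 quantities. For normally distributed values chance flags about 1 in 20 for each quantity searched. That rate does not hold for genes at or near 0 in most cells. Where the other 3 cells are at 0, as for Sst, Slc17a6 and Gpr101, any value above 0 passes the limit. For Cacna1h and Pnoc the other 3 cells reached at most 3.92 and 7.14 CPM. In 8 quantities 1 cell stood far from the other 3. Cell S408 had the highest microglia markers of all peptide-lacking cells, 35484 CPM, where the next of the 4 had 80.8 CPM, and the lowest neuron markers of the 4, 4814 CPM, where the highest had 10997 CPM. Cell S329 stood out in oligodendrocyte markers (1247 CPM), Slc17a6 (535 CPM), Cacna1h (275.4 CPM) and Sst (42.5 CPM). Cell S97 stood out in Pnoc (721 CPM) and Gpr101 (5.11 CPM). The 4 cells thus included 1 with Slc17a6 and Cacna1h and another with Pnoc.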

How the results depend on the processing

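Each value has 1 sample per class behind it, so changes between settings are descriptions, and where no cause is named the cause was not tested. Over all settings, 24 list shares were computed 303 times, of which 276 stayed within their interval and on their side of 50%, 13 moved and 14 changed sides. For 97 single ratios, 5 of 1245 alternative values changed the sign of a difference of 2-fold or more, and 7 smaller differences also changed sign (Dlx2, Gad2, Ier2, Jun, Penk, Slc18a2 and Th). These 5 were Adcyap1 without cells at 100 CPM of microglia markers (-1.62), Cacna2d4 with the class at 1000 CPM (0.60), Isl1 in night cells (-0.27), Sst in active over silent cells with lower numbers (-0.46), and Slc17a6 without its carriers (-3.08), where the setting removes the gene.

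With the class at 1000 CPM, 56.2% of cells fell in it. Of the genes tested, those 2-fold higher made up 12.8% in the cells with higher numbers, 10.4% without a filter on low values (2066 genes), 3.91% with a filter at 100 CPM (114 genes), 5.01% with a pseudocount of 10 CPM, 13.9% as means over cells and 14.7% in day cells. Those 2-fold lower made up 10.3% and 11.02% in the cells with lower and higher numbers, 7.84% without a filter (1551 genes), 4.63% with a filter at 100 CPM (135 genes), 3.87% with the larger pseudocount, 2.18% as means over cells, 11.3% in day cells and 10.7% in night cells.

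The share of the class with a GABA gene was 88.2% when 1 read after thinning counted and 92.05% without Slc17a6 carriers. The share with another precursor was 64.3% and 84.5% in the cells with lower and higher numbers, 82.5% at 20 CPM, 95.1% after thinning and 83.3% in day cells. At 20 CPM, Cacna1h reached 21.1% and Cnr1 22.8%. After thinning, Cacna1h and Cnr1 reached 32.4%, Pnoc 26.5% and Sst 30.4%, and Sst was at 10.7% in the cells with lower numbers. Thinning left out 12 peptide-lacking cells and 7 others.

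Of the lists, given as the percent of members higher in the class, GABA genes were at 0% in the cells with higher numbers and in day cells, and clock genes at 45.5% in night cells. As means over cells, which shift all genes upward, astrocyte markers were at 58.3%, calcium and HCN channels at 66.7%, potassium channels at 69.2%, sodium channels at 90% and immediate early genes at 58.6%. Immediate early genes were also at 51.7% with the class at 10 CPM and without cells with microglia markers, 58.6% in the cells with lower numbers and 62.1% in day cells. Potassium channels were at 53.8% without cells with microglia markers, 69.2% in the cells with lower numbers and 57.7% in day cells. Microglia markers were at 100% with the class at 1000 CPM, as means over cells and in day cells. Within the class, clock genes higher in active cells were 68.2% as means over cells and in day cells, those higher by day 77.3% as means over cells, and those higher in cFOS+ cells 59.1% with the authors' normalized values. Immediate early genes higher in active cells were 71.4% without cells with microglia markers and 66.7% in the cells with lower numbers, and those higher in cFOS+ cells 57.7% in the cells with higher numbers, 55.6% in day cells and 18.5% in night cells. No paired analysis was possible because only 1 pair of cells, night active cFOS- and night silent cFOS+, shares a number and no animal or slice is named.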

Other observations

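Tac1, the precursor of substance P, was carried by 4 peptide-lacking cells and 2 others, with single peptide-lacking cells up to 4747 CPM, and none of the 4 carried Sst or Slc17a6. Among the 29 peptide-lacking cells with no other neuropeptide precursor, 21 were night cells, 20 bore the lower cell numbers and 12 had 100 CPM or more of microglia markers. The 20 Sst carriers included 15 active and 4 silent cells, 9 day and 11 night cells, and 6 with lower numbers.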
